A study of Mus musculus with 2 samples.

Results

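Kupffer cells, the resident macrophages of the liver, were picked out by their transcripts in 2 droplet libraries of mouse liver nonparenchymal cells. A cell barcode was taken as a Kupffer cell where it had at least 500 UMIs (unique molecular identifiers, each counting 1 captured transcript) and at most 20% of them from mitochondrial genes. It also needed at least 4 UMIs in sum of Clec4f, Vsig4, Timd4, Cd5l and Marco, at least 1 of Clec4f plus Timd4, at least 3 of C1qa, C1qb and C1qc, and at most 2 of the endothelial genes Ptprb, Kdr, Egfl7 and Clec4g. This rule found 627 cells among 9146 barcodes past the depth and mitochondrial filter and 10000 in all: 408 from wild type and 219 from yap1. Both libraries came from C57BL/6 mice given carbon tetrachloride (ccl4, a hepatocyte toxin used to bring about fibrosis) 4 times. The yap1 mice are named yap1flox/floxlyz2cre in the study's design text, so Cre at the Lyz2 locus, which is active in macrophages, monocytes and neutrophils alike, acts on floxed Yap1. The sources do not say whether the wild-type mice carried Cre or floxed alleles. Each library is a sample from 3 mice and each genotype has 1 library, so differences between genotypes are given without p-values and could not be checked in replicates.

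Kupffer cells line the liver sinusoids and clear bacteria, dying cells and worn red blood cells from portal blood. They bind carbohydrates through Clec4f, complement-coated particles through Vsig4, phosphatidylserine on dying cells through Timd4 and bacteria through Marco, and they secrete Cd5l. Yap1 is the transcriptional coactivator at the end of the Hippo pathway, which acts through TEAD factors. Liver injury kills part of the resident Kupffer cells, and monocytes entering from the blood become macrophages that can take up Kupffer cell traits over time, with Timd4 among the last genes to appear.

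The promoters of the 5 genes that mark these cells are shown because all later values rest on their expression. Those of Lyz2 and Gatm follow because they are among the genes that differ most steadily between the libraries. Each is the 250 bases before the RefSeq start on GRCm38.p6, 5′ to 3′ on the gene's strand, with capitals marking the core site of the macrophage factor PU.1 (GAGGAA, or TTCCTC where it lies on the other strand).
Clec4f, chr6:83656117-83656366, minus strand: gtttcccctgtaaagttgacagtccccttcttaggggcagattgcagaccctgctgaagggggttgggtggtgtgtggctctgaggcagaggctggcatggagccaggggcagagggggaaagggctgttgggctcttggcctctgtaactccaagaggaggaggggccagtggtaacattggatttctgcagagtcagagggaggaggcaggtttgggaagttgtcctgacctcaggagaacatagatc
Vsig4, chrX:96293439-96293688, minus strand: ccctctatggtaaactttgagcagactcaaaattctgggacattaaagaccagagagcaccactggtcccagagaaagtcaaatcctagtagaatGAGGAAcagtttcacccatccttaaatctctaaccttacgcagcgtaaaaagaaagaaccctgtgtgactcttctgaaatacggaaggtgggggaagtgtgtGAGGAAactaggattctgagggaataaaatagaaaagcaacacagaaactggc
Timd4, chr11:46810549-46810798, plus strand: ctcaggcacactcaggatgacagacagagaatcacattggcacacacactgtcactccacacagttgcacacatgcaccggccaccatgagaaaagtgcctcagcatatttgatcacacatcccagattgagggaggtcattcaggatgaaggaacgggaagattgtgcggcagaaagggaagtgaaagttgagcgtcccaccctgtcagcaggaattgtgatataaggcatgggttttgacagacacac
Cd5l, chr3:87357631-87357880, plus strand: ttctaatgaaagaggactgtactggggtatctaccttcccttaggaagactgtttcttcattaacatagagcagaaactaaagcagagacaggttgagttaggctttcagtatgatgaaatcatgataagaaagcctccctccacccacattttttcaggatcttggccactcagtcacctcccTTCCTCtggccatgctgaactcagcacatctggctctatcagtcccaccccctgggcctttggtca
Marco, chr1:120505025-120505274, minus strand: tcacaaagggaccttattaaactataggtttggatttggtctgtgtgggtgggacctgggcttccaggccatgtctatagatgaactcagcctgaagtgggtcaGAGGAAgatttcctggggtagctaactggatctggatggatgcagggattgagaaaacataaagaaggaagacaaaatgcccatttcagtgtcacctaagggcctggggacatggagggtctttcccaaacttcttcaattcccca
Lyz2, chr10:117282273-117282522, minus strand: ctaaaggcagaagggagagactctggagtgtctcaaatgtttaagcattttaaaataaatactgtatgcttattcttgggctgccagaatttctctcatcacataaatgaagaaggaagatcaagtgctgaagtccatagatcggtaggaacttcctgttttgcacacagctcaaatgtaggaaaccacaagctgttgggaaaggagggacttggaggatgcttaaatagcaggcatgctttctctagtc
Gatm, chr2:122611278-122611527, minus strand: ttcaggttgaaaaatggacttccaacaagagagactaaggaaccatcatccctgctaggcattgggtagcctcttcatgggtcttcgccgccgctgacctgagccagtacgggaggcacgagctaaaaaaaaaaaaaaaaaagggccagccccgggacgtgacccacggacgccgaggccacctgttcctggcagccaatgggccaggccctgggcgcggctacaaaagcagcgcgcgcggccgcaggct
The PU.1 core was found 2 times in the Vsig4 window, 1 time each in those of Cd5l and Marco, and 0 times in those of Clec4f, Timd4, Lyz2 and Gatm. Of 32851 promoter windows of this length, 23.3% hold that core. A CCAAT box (on either strand, like all motifs here), found in 33.9% of the windows, occurs 1 time before Clec4f and Timd4 and 2 times before Gatm. Neither TATAAA (12.4% of windows), TGANTCA (6.75%) nor CACGTG (6.02%) occurs in any of these 7 windows.

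The Kupffer cells were shallow and uneven in depth. They had medians of 2433.5 UMIs per cell in wild type (506 to 49359) and 3125 in yap1 (519 to 49319), 1935997 and 1261517 UMIs in all. The 48 wild-type and 31 yap1 cells above 10000 UMIs held 48.9% and 51.0% of these, so sums over cells lean on few cells. Some of them also held transcripts of other cells: 56 and 35 Kupffer cells, with 40.7% and 33.7% of the UMIs, carried at least 3 UMIs of the B cell, T cell, NK cell, neutrophil or mesenchymal marker list. The monocyte and monocyte-derived macrophage lists were not part of that screen, and 135 and 99 cells held at least 3 UMIs of the former and 214 and 123 of the latter. Neutrophil markers summed to 2907 CPM (UMIs scaled to 1e+06 in the group) in wild type and 790.3 in yap1, with 94.2% and 82.8% of them in 5 cells. All 8 neutrophil genes were detected in both. T cell markers stood at 18.6 and 109 CPM, B cell markers at 236.05 and 172 CPM. The 8 markers of monocyte-derived macrophages, all detected, stood at 1745 and 2829.9 CPM, with 20.9% and 62.5% in 5 cells. Sinusoidal endothelial markers outside the rule stood at 70.8 and 53.1 CPM, with 1 and 4 of 10 at 0, against 10757 and 10886 CPM in endothelial cells. A sum of counts cannot tell fewer expressing cells from less RNA per cell.

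The labelled identity held in the genes that the rule did not use. The 12 other Kupffer genes of a fixed list, all detected in both libraries, summed to 5516.5 CPM (5412 to 5622) in wild-type and 5197 CPM (5072 to 5324) in yap1 Kupffer cells. In monocyte-derived macrophages, picked by Gpnmb, Trem2, Cx3cr1 and Ccr2 without the Kupffer genes, the same 12 summed to 2307 and 1675 CPM, of which Id3 alone gave 1809 and 1279.6. In barcodes picked by classical monocyte genes, called classical monocytes from here on, they summed to 877 and 684 CPM, and in B cells to 236.4 and 263 CPM. In sinusoidal endothelial cells the 12 summed to 2112 and 2040 CPM, above the monocyte-derived macrophages in yap1, with 2 of the 12 at 0 in each library. C6, a terminal complement component, stood at 222 and 225 CPM in Kupffer cells and at most 0.374 CPM in either monocyte-lineage class. Fcna, a ficolin that binds bacteria, stood at 582 and 759 CPM against 4.76 and 4.61 in monocyte-derived macrophages, and the iron exporter Slc40a1 at 1299 and 1192 CPM against 37.05 and 28.02. The class picked as classical monocytes was mixed: beside 6326 and 6126 CPM of monocyte markers it held 539 and 522 CPM of T cell, 313 and 223 CPM of NK cell and 663 and 485 CPM of dendritic cell markers, and its erythroid markers stood at 21.3 and 1776.5 CPM. Id3 and Cd38 did not set the Kupffer cells apart: Id3 was higher in monocyte-derived macrophages, and Cd38 stood at 206 and 215 CPM against 481 and 575.5 in sinusoidal endothelial cells. All intervals are 95% intervals for counting error only, which treat UMIs as independent although they come clustered in cells.

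**Figure D1:**
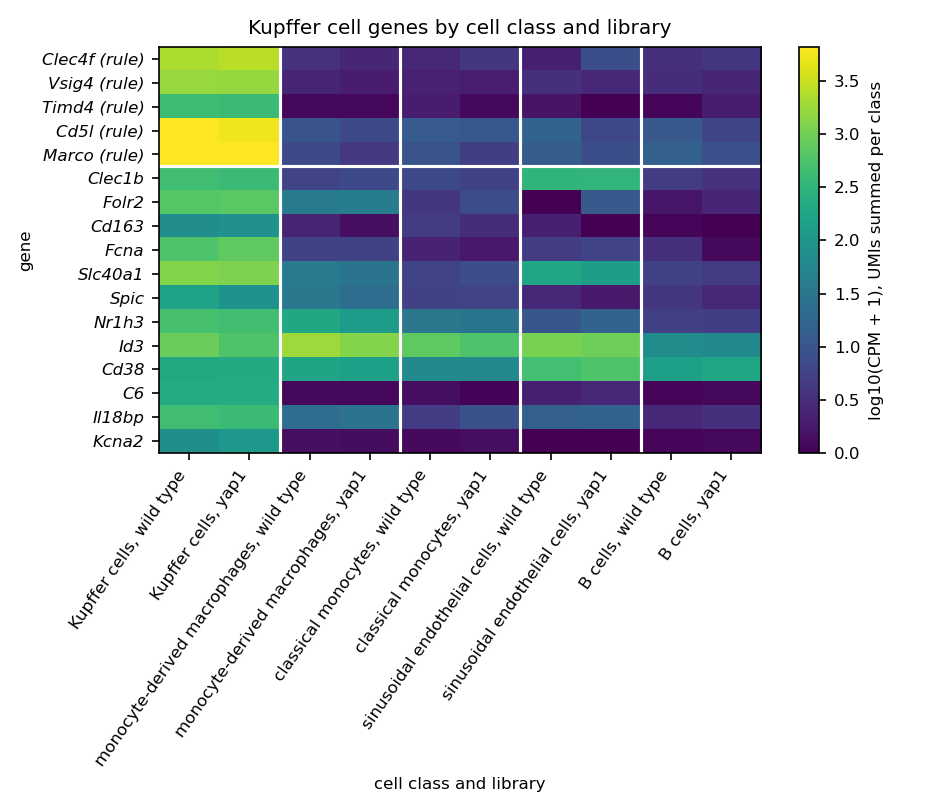
Colour gives log10(CPM + 1) of the 5 marker genes used by the rule (above the white line) and 12 other Kupffer genes in 5 cell classes, each in the wild-type and yap1 libraries. C6 and Kcna2 are dark in every class but the Kupffer cells, while Id3 is bright in the monocyte-derived macrophages and Cd38 in endothelial cells.

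Few cells lay at the edge of the rule. The median marker sum was 48 in wild type and 53 in yap1, and 0 and 1 cells had a sum of 4, against 0 and 4 barcodes at a sum of 3 that met the other conditions. In the 4 and 7 cells with sums of 4 to 7, the 12 other Kupffer genes stood at 2683 and 2837 CPM, against 2447 and 1966 CPM in 23 and 25 barcodes at 1 to 3 and 5564 and 5233 CPM at 8 or more. At most 2 endothelial UMIs were allowed, and 387 and 207 cells had 0. A further 13 and 3 barcodes met the Kupffer conditions with more endothelial UMIs and were left out. Over these, Kupffer cells had 45 of 6149 genes higher in both libraries (0.732%) and 103 lower (1.68%), and the endothelial markers outside the rule stood at 9377 and 6185 CPM in them. The libraries shared 5 barcodes, and 0 Kupffer cells were found under the same barcode in both.

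Kupffer cells were 8.34% of the wild-type barcodes past the filter (7.58 to 9.15%, Clopper-Pearson), against 5.15% of yap1 barcodes (4.504 to 5.86%). The ratio of yap1 over wild type was 0.618 (0.522 to 0.7295). Of Kupffer cells, monocyte-derived macrophages and classical monocytes only, Kupffer cells were 26.2% (24.05 to 28.5%) in wild type and 14.2% (12.5 to 16.1%) in yap1. This gives a ratio of 0.542 (0.458 to 0.640). Other myeloid classes were left out of this sum, and the classical monocyte class was mixed. Monocyte-derived macrophages numbered 384 and 572 cells by the same filter, and classical monocytes 764 and 750. The share of Kupffer cells with a Timd4 UMI was 67.9% (63.1 to 72.4%) and 69.9% (63.3 to 75.9%), and with a Clec4f UMI 94.9% (92.2 to 96.8%) and 96.8% (93.5 to 98.7%). After thinning to 1000 UMIs per cell, the Timd4 shares were 37.8% and 39.5% and the Clec4f shares 80.2% and 81.5%, so these shares depend on depth. Timd4 and Clec4f are genes of the rule, and their shares are given as a description. In B cells, which should lack both genes and had median depths of 3707 and 4471 UMIs, the shares before thinning were 0.0748% and 0.524% for Timd4 and 1.05% and 1.68% for Clec4f.

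The targeted gene could not be read in these cells. Yap1 had 0 UMIs in the Kupffer cells of both libraries, which allows up to 1.5496 and 2.38 CPM, and so did its paralog Wwtr1 (TAZ) and the dopamine receptor gene Drd2 of the study's title. These counts check neither the deletion nor the labels. The YAP target genes Ctgf and Cyr61 had 2 and 0 UMIs and 23 and 6 UMIs, the last with 69.6% and all of them in 5 cells. Lyz2 (ENSMUSG00000069516, chromosome 10, 117277331 to 117282321, mm10), which encodes lysozyme and carries Cre in the yap1 mice, stood at 8052 CPM (7926 to 8180) in wild type and 3118.5 CPM (3022 to 3217.5) in yap1. Its ratio was 0.387 (0.374 to 0.401), and after each cell was thinned to 1000 UMIs it was found in 91.8% (88.6 to 94.4%) and 77.5% (71.1 to 83.1%) of cells. In thinned B cells these shares were 8.16% and 6.28%. The ratio was lower than in monocyte-derived macrophages, at 0.541, by a factor of 0.716 (0.691 to 0.743), and lower than in classical monocytes, at 0.610, by a factor of 0.635 (0.612 to 0.659). The Lyz2 locus carries Cre in the same mice that lose Yap1, so the parts of both in this value cannot be told apart. Lyz1, the neighbouring lysozyme gene, had 10 and 127 UMIs, 97.6% of the yap1 UMIs in 5 cells. It was also higher in the other classes, with 101 and 3310 UMIs in monocyte-derived macrophages, which gives a ratio of 17.8, and 31 and 1498 in classical monocytes, a ratio of 39.5. Of the 50-base words at its 3' end, 17.7% also occur in Lyz2.

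Across the Kupffer cells, 8501 genes had at least 20 UMIs over both libraries and were not part of the rule. A gene was called where its ratio lay at or beyond 1.5-fold and its interval was clear of 1. By that, 322 genes were higher in yap1 (3.79% of those tested) and 327 lower (3.85%), with a median log2 ratio of 0.01 over all. These shares are the background for the gene lists below, where a count of 1 or 2 called genes is a description only. Few of the 649 calls held in all 18 alternatives of cells, scaling and minimum: 11 higher and 14 lower genes kept theirs, not counting the minimum of 100 UMIs against genes below it. Thinning to 1000 UMIs per cell left 307000 and 158000 UMIs with the minimum of 20 unchanged, and kept 64 calls. Genes of few UMIs could not keep a call there, so those that passed lean to abundant genes. A lost call need not mean a changed ratio. Among the genes that kept their call, lower in yap1 were Lyz2, Adgre1, Spic and Cfb, beside Nme2, Wdr89, Dbndd2, Rnaset2a, Rnaset2b, Dynlt1c, Bloc1s1, AY036118, Gm11808 and Rps27rt. Higher were Gatm and Ccl24, beside Atp5k, Dynlt1f, Gm10076 and the 6 ribosomal protein genes Rpl35, Rpl37a, Rpl38, Rps27, Rps28 and Rps29. Those that the rule for named genes did not name are given because they passed, and so were chosen after their values were seen. Several of them share 3' sequence with other genes, which makes their counts uncertain: 98.9% of the 50-base words of Nme2, 91.1% of those of Rps27rt, 82.04% of Dynlt1f, 69.5% of Dynlt1c and 76.3% of Rnaset2a also occur elsewhere. Dynlt1c and Dynlt1f, near-identical genes, stood on opposite sides, as did Rps27 and Rps27rt. Most of these calls were not particular to Kupffer cells. Of the 11 higher genes, 9 were called higher in monocyte-derived macrophages, classical monocytes and B cells too, Gatm and 5 of the ribosomal protein genes among them. Of the 14 lower genes, 12 were called lower in both other myeloid classes and 8 in B cells as well. Nme2 had a ratio of 0.164 in Kupffer cells, 0.126 in monocyte-derived macrophages and 0.103 in B cells, and Wdr89 of 0.181, 0.130 and 0.109. Rnaset2b stood at 0.322 in Kupffer cells, 0.438 in monocyte-derived macrophages, 0.407 in classical monocytes and 0.458 in B cells. Whether both libraries were counted with the same annotation and settings the sources used here do not say, and the part of such a difference was not tested. Outside these were Adgre1 and Spic, called lower in Kupffer cells alone of the 4 classes, Rps28, called higher in them alone, and Ccl24, called the other way in both myeloid classes. For Rps28 and Spic this turns on the 1.5-fold limit. Rps28 stood at 1.63 in Kupffer cells and at 1.42, 1.35 and 1.31 in monocyte-derived macrophages, classical monocytes and B cells, all with intervals clear of 1. Spic stood at 0.696 (0.562 to 0.863) in monocyte-derived macrophages. For Lyz2, Adgre1, Spic, Gatm and Ccl24, at most 16.9% of words were shared.

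**Figure D2:**
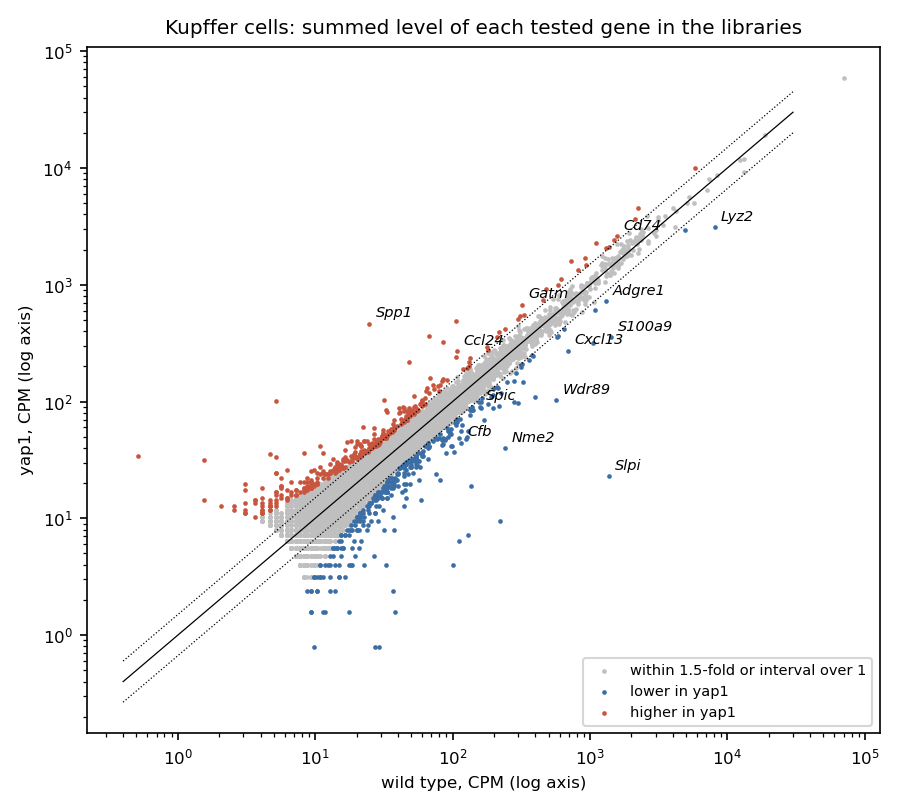
Each point is a tested gene, placed by its summed level in wild-type (x) and yap1 (y) Kupffer cells in CPM on log axes; the solid line marks equality, the dotted lines 1.5-fold, and 5 genes at 0 in 1 library are not drawn. Lyz2 at 8052 and 3118.5 CPM is the most abundant labelled gene below the line, and Slpi and Spp1, which rest on 5 cells, are the labelled genes farthest from it.

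Genes of macrophage identity were lower in yap1 Kupffer cells at a few points, not across the list. Adgre1 (ENSMUSG00000004730, chromosome 17, 57358691 to 57483527), which encodes the macrophage receptor F4/80, stood at 1314 CPM (1263 to 1366) in wild type and 721 CPM (675 to 769.8) in yap1, which gives a ratio of 0.549 (0.508 to 0.592). It was found in 85.8% and 74.4% of cells. Spic (ENSMUSG00000004359, chromosome 10, 88674772 to 88685015), a transcription factor of iron-recycling macrophages, stood at 158 CPM (140.4 to 176), against 90.4 CPM (74.5 to 109) in yap1, which gives a ratio of 0.574 (0.458 to 0.714). Of 15 Kupffer cell genes outside the rule, these 2 were called lower and 0 higher, and the list's median log2 ratio was -0.11. Over all genes tested, 3.85% were called lower and 3.79% higher. Kcna2, a potassium channel gene, had a ratio of 1.36 (1.07 to 1.73), and Id3, a TGF-beta and BMP target that Kupffer cells need, one of 0.668 (0.611 to 0.729), just inside the 1.5-fold limit. Of 15 Kupffer cell transcription factors, Spic and Id1 were lower and 0 higher (median -0.14). Nr1h3, the LXR-alpha receptor, had a ratio of 0.900 and Zeb2 one of 0.908, within 1.5-fold of 1, as did Spi1, which encodes PU.1, at 1.05. Nr1h3, Zeb2 and Spi1 were named after their values were seen. Over its 12 genes tested there, the Kupffer gene list had a median of -0.16 in monocyte-derived macrophages and -0.09 in classical monocytes. The transcription factor list stood at -0.09 and 0.01 in these classes. The Adgre1 ratio differed from that in monocyte-derived macrophages, 0.941 (428 and 403 CPM), by a factor of 0.584 (0.532 to 0.641), and from that in classical monocytes, 1.47, by a factor of 0.374 (0.334 to 0.419). For Spic the factor against monocyte-derived macrophages, at a ratio of 0.696, was 0.824 (0.6105 to 1.11), whose interval spans 1.

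Heme and iron genes, which serve the recycling of red blood cells, were mostly below 1. Of 14 tested, 12 had a ratio below 1, and 3 were called lower and 1 higher (median -0.18, between -0.62 and -0.12 over the alternatives). Of all 8501 genes tested, 4153 had a ratio below 1, and 3.85% were called lower and 3.79% higher. Hmox1 (chromosome 8, 75093621 to 75100589), the heme oxygenase that opens the heme ring, stood at 1086 CPM (1040.3 to 1134), against 606 CPM (564 to 651) in yap1, which gives a ratio of 0.558. It lay below 1 in 18 of 18 alternatives, between 0.388 in cells without a Timd4 UMI and 0.672 in cells of at most 10000 UMIs, where it missed the 1.5-fold limit. Cells with at least 2 UMIs of cycling markers were not taken alone among these 18. In them Hmox1 stood nearer to 1, at 0.848 (0.744 to 0.964), against 0.433 (0.386 to 0.485) in the other Kupffer cells. Ncoa4, which carries ferritin to the lysosome, had 83 and 21 UMIs and a ratio of 0.388 (0.228 to 0.633). Spic was the other lower gene, and Tfrc, the transferrin receptor that takes up iron, was higher, at 29.96 and 49.1 CPM, which gives a ratio of 1.64 (1.13 to 2.39). The exporter Slc40a1 stood at a ratio of 0.918, and the ferritin heavy chain gene Fth1, at 13173 and 9165 CPM, at 0.696. Slc40a1 and Fth1 were named after their values were seen. In monocyte-derived macrophages Hmox1 had a ratio of 0.790, and the factor between the classes was 0.706 (0.643 to 0.776). The whole iron list was about as low in those macrophages, with 10 of 15 genes below 1 and a median of -0.19. In classical monocytes 6 of 16 were below 1 (median 0.08).

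Among complement genes, Cfb (chromosome 17, 34856374 to 34862518), the protease of the alternative pathway, stood at 116 CPM (101.1 to 132), against 44.4 CPM (33.5 to 57.6) in yap1, which gives a ratio of 0.384 (0.281 to 0.516). It was as low in monocyte-derived macrophages, at 0.387, with a factor between the classes of 0.992 (0.705 to 1.40). Of its 3' words, 70.9% also occur in the overlapping gene Gm20547, so its count is uncertain. C3ar1, the receptor for complement fragment C3a, had a ratio of 0.656 (0.543 to 0.789) in Kupffer cells, but 1.15 in monocyte-derived macrophages and 2.11 in classical monocytes. Cd93, a receptor in the clearance of dying cells, was higher at 1.94, with 51.9% and 68.0% of its UMIs in 5 cells. Of 11 complement genes tested, 1 was higher and 2 lower (9.09% and 18.2%, against 3.79% and 3.85% of all genes). Pattern recognition genes had 3 of 18 lower and 1 higher: the lipopolysaccharide receptor Cd14 at 0.626 (581 and 364 CPM), Irak3, an inhibitor of Toll-like receptor signalling, at 0.580, and the lectin receptor Clec4d at 0.405. Irak3 stood between 0.528 and 0.790 and Cd14 between 0.461 and 0.745 over the alternatives. Of 16 scavenger and efferocytosis receptors, Colec12 was lower (0.431) and Stab1 higher (1.61), both low in level at 46.0 and 19.8 CPM and 51.1 and 82.4 CPM.

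Gatm (ENSMUSG00000027199, chromosome 2, 122594467 to 122611303), whose enzyme makes the precursor of creatine, was higher in yap1 Kupffer cells. It stood at 318 CPM (294 to 344), against 676 CPM (632 to 723) in yap1, which gives a ratio of 2.13 (1.91 to 2.36). It was found in 55.4% (50.4 to 60.3%) and 78.1% (72.01 to 83.4%) of cells, and after thinning in 27.2% (22.7 to 32.03%) and 49.0% (41.9 to 56.1%), against 0.524% and 1.05% of thinned B cells. Kupffer cells had more Gatm than the monocyte-derived macrophages, which stood at 85.9 and 246 CPM. The ratio in those macrophages was 2.87 and that in classical monocytes 3.01, so the Kupffer ratio was lower by factors of 0.741 (0.639 to 0.858) and 0.707 (0.592 to 0.844). Of 9 creatine and arginine genes tested, Gatm alone was higher, and Arg2, the mitochondrial arginase, was lower at 0.384 with 60 and 15 UMIs. Ckb, the brain-type creatine kinase gene, had a ratio of 1.27 (1.16 to 1.39), with 508 and 644 CPM.

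Ccl24 (ENSMUSG00000004814, chromosome 5, 135569937 to 135573049), an eotaxin that attracts eosinophils, was higher in yap1 Kupffer cells and lower in the other myeloid classes. It stood at 107 CPM (93.3 to 123), against 269 CPM (241 to 299) in yap1, which gives a ratio of 2.501 (2.10 to 2.99). It was found in 20.3% (16.5 to 24.6%) and 49.3% (42.5 to 56.1%) of Kupffer cells, and after thinning in 10.1% (7.18 to 13.6%) and 26.5% (20.5 to 33.2%). In B cells, 0.0748% and 0.314% had a UMI. In monocyte-derived macrophages the ratio was 0.380 (72.2 and 27.5 CPM) and in classical monocytes 0.530 (30.4 and 16.1 CPM), so that the Kupffer ratio was 6.58 times (5.19 to 8.34) and 4.72 times (3.62 to 6.15) theirs. Of 19 LXR target and lipid genes, 2 were higher (Fabp4 and Fabp5, described below with the genes of few cells) and 1 lower. The lower one was Pla2g7, a phospholipase that breaks down platelet-activating factor, at 195 CPM (176 to 216) and 88.0 CPM (72.4 to 106), which gives a ratio of 0.451 (0.361 to 0.558). It was found in 33.1% and 17.4% of Kupffer cells, and in 2.54% and 2.93% of B cells. Its ratio was 0.283 in cells with a Timd4 UMI and 0.786 (0.5701 to 1.08) in those without.

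**Figure D3:**
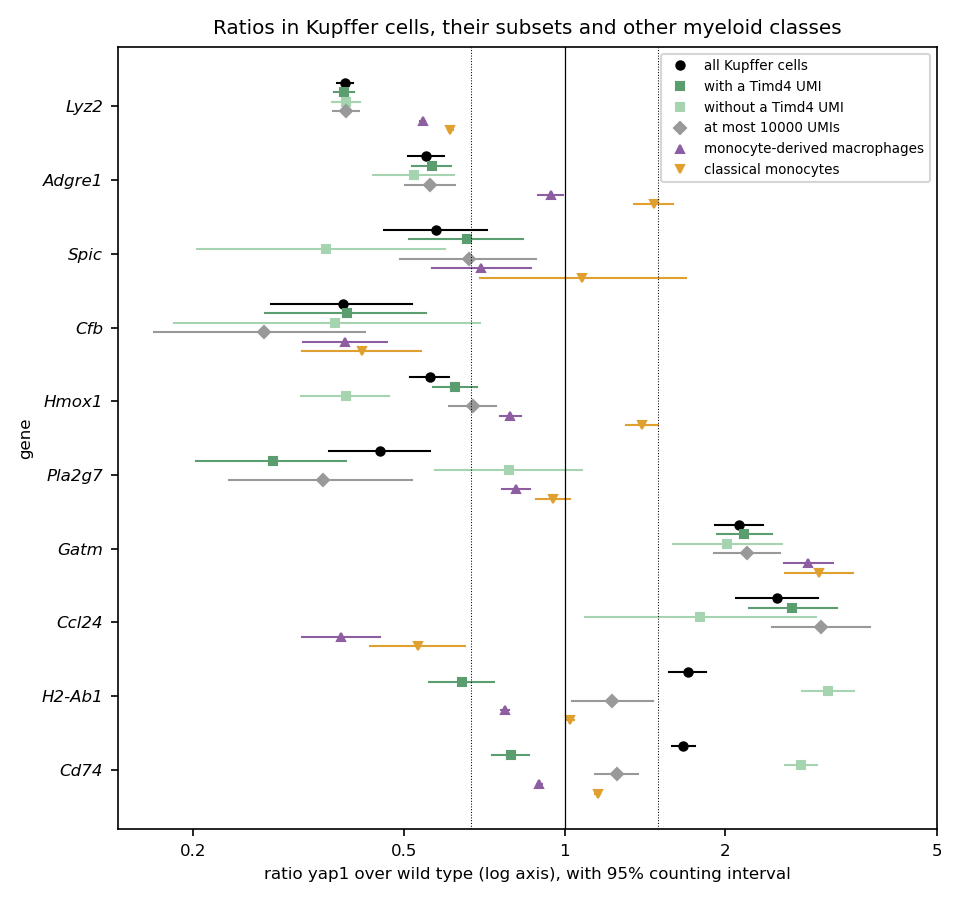
Ratios of yap1 over wild type on a log axis with their 95% counting intervals (lines) for 10 genes, in all Kupffer cells, in 3 subsets of them, in monocyte-derived macrophages and in classical monocytes; dotted lines mark 1.5-fold. Lyz2 and Adgre1 keep nearly the same ratio in the 3 Kupffer subsets drawn, Ccl24 lies on opposite sides of 1 in Kupffer cells and the other classes, and H2-Ab1 and Cd74 lie on opposite sides in Kupffer cells with and without a Timd4 UMI.

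MHC class II genes, which present peptides to CD4 T cells, were higher in yap1 Kupffer cells as a sum, but not in every subset of the cells. Of 11 tested, 10 had a ratio above 1, and 5 were called higher and 0 lower (median 0.49). Among all 8501 genes tested, 4348 had a ratio above 1, and 3.79% were called higher and 3.85% lower. The invariant chain gene Cd74 stood at 1572 CPM (1517 to 1629), against 2625 CPM (2536 to 2716) in yap1, which gives a ratio of 1.67, and H2-Aa, H2-Ab1 and H2-Eb1 had ratios of 1.82, 1.70 and 1.92. H2-DMb1, whose product loads the peptides, stood at 1.68 (90.4 and 151 CPM), with 27.4% of its words shared with H2-DMb2. For the other 4 genes, 5 cells held between 51.2% and 66.9% of the wild-type UMIs and between 58.7% and 74.2% of the yap1 UMIs. In cells with a Timd4 UMI, Cd74 stood at 0.792 (0.731 to 0.858) and H2-Ab1 at 0.641 (0.556 to 0.738). In cells without one they stood at 2.78 (2.59 to 2.98) and 3.12 (2.79 to 3.50). The list's median was -0.47 and 1.30 in these subsets, and 0.04 without the deepest 5% of cells. A filtered set, described below with the Timd4 split, left out cells above 10000 UMIs or with B cell, T cell, NK cell, neutrophil or mesenchymal markers. In its cells with a Timd4 UMI, neither gene was lower in yap1. There Cd74 stood at 315 and 338 CPM and H2-Ab1 at 88.7 and 108 CPM, the latter with 54 and 40 UMIs. In its cells without one, Cd74 stood at 542 and 1829 CPM and H2-Ab1 at 146 and 718 CPM. The B cell markers stood at 378 and 392 CPM in cells without a Timd4 UMI and at 183 and 80.7 CPM in those with one, and monocyte-derived macrophage markers at 2731 and 3378 CPM in cells without one, against 1376 and 2603 CPM in those with one. In cells without a Timd4 UMI the monocyte, dendritic cell and T cell markers were also higher in yap1, at 1146 and 1923 CPM, 98.7 and 151 CPM and 28.5 and 187 CPM. In cells with one, these stood at 1186.5 and 972 CPM, 34.1 and 48.2 CPM and 14.9 and 77.4 CPM. The part of these markers in the MHC class II values was not tested. The ratios also differed with the cell cycle: Cd74 stood at 0.715 (0.626 to 0.816) in cycling and 2.07 (1.962 to 2.19) in other Kupffer cells, and H2-Ab1 at 0.614 (0.482 to 0.778) and 2.13 (1.95 to 2.32).

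Interferon-stimulated genes were slightly but broadly above 1. Of 25 tested, 24 had a ratio above 1, and 5 were higher and 1 lower, with a median of 0.26 that lay between 0.03 and 0.54 over the alternatives. Of all 8501 genes tested, 4348 had a ratio above 1, and 3.79% were called higher and 3.85% lower. The shift was not particular to Kupffer cells. In classical monocytes 22 of 25 were above 1 (median 0.26), and in monocyte-derived macrophages 16 of 25 (median 0.07). In Kupffer cells Oas1a, a sensor of double-stranded RNA, stood at 1.79 (46.5 and 83.2 CPM), though 56.1% of its words also occur in other Oas genes, and Ifit3 at 1.67 (47.5 and 79.3 CPM). The guanylate-binding gene Gbp2 stood at 1.51. The lower gene was Zbp1, at 0.548, with 62.7% of the wild-type UMIs in 5 cells and a ratio of 1.43 in cells with a Timd4 UMI. MHC class I genes had 10 of 12 above 1 (median 0.26), with H2-M3, which presents bacterial formylated peptides, called at 1.73 (1.31 to 2.28) and found in 16.7% and 30.1% of cells. The immunoproteasome gene Psmb10 stood at 1.39 and the peptide transporter gene Tap2 at 1.45, both within 1.5-fold of 1.

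Chemokine, cytokine and repair genes gave many calls, most of which rested on a handful of cells. Of 17 chemokines, 7 were higher and 2 lower (41.2% and 11.8%, against 3.79% and 3.85% of all genes), around a median of -0.05. Cxcl10 had a ratio of 5.42 and Ccl5 of 4.54, with 97.2% and 98.5% of their yap1 UMIs in 5 cells. Cxcl10 was 0.138 in cells without a Timd4 UMI, and without the 5 cells richest in each gene the ratios were 0.453 and 0.292. Cxcl13, which draws B cells, stood at 689 and 273 CPM, which gives a ratio of 0.397 (0.352 to 0.447), with 61.4% of the wild-type UMIs in 5 cells, and 1.03 after thinning. It was a gene of Kupffer cells in these libraries, at 1.45 and 0.113 CPM in monocyte-derived macrophages. Of 10 cytokine genes, Osm was higher and Il6 and Il10 lower, and Il10, an anti-inflammatory cytokine, had 157 and 27 UMIs with 61.1% and 70.4% in 5 cells. Il6 was named after its value was seen. Tgfb1, the main profibrotic cytokine of macrophages, was found in 44.1% and 53.4% of cells and had a ratio of 1.30 (1.13 to 1.498), within 1.5-fold of 1.

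Of 24 repair and scar-associated genes, 6 were higher and 4 lower (25% and 16.7%, against 3.79% and 3.85% of all genes). Spp1, osteopontin of scar-associated macrophages, stood at 24.8 and 465 CPM, with 97.8% of its yap1 UMIs in 5 cells and 8.22% of yap1 cells holding any. The fibronectin gene Fn1 was higher at 2.12 with 95.03% of its yap1 UMIs in 5 cells, and the elastase gene Mmp12 lower at 0.431 with 84.3% of its yap1 UMIs in 5 cells. Fabp5, a fatty acid carrier, stood at 4.63, but 0.389 after thinning, and Lgals1 at 3.78 with 74.3% in 5 cells. Spp1, Fn1, Fabp5 and Lgals1 had higher levels in monocyte-derived macrophages, with Spp1 at 753 and 1160.5 CPM. The marker sum of those macrophages in yap1 Kupffer cells had 62.5% of its UMIs in 5 cells, and the part of such cells in these values was not tested. At the other end, Slpi (0.0168), Retnlg, Lcn2, S100a8 and S100a9, genes expressed in neutrophils, were among the lowest, with between 94.01% and 99.1% of their wild-type UMIs in 5 cells. Slpi was at 0.403 without the 56 and 35 cells that hold B cell, T cell, NK cell, neutrophil or mesenchymal markers.

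Immediate early genes depended on which cells were weighed. Of 19 tested, 13 were below 1, with 1 called higher and 2 lower (median -0.15). Fosb stood at 0.519 (226 and 117 CPM) and Klf4 at 0.604, while Socs3 was higher at 1.69, with 78.1% of its yap1 UMIs in 5 cells. With cells weighted equally the list's median was 0.42, with cells of at most 10000 UMIs 0.48, and after thinning 0.66. NF-kB feedback genes had 1 of 19 higher and 3 lower, among them Nfkbiz at 0.540 and Tnfaip3 at 0.590. Tnfaip3, which restrains NF-kB, stood at 1.03 in cells of at most 10000 UMIs. Heat shock genes had 1 of 11 higher and 1 lower (9.09% each, against 3.79% and 3.85% of all genes). Hspa1b, the inducible Hsp70 gene, stood at 1.93 (1.54 to 2.43), and Hsph1 at 0.618.

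Cycling markers were found in a larger share of Kupffer cells than of monocyte-derived macrophages, although the latter were deeper. At least 2 UMIs of 8 cycling markers were found in 34.8% (30.2 to 39.6%) of Kupffer cells in wild type and 47.9% (41.2 to 54.8%) in yap1, against 9.90% and 7.34% of monocyte-derived macrophages and 1.65% and 1.68% of B cells. After thinning, the shares in Kupffer cells were 17.9% (14.2 to 22.2%, 66 of 368) and 27.5% (21.4 to 34.2%, 55 of 200), still higher in yap1. Their separate intervals overlap slightly, which does not show that the shares are alike. Summed over all Kupffer cells the 8 markers stood at 636 and 634 CPM. Of 26 cell cycle genes, 1 was called higher, the cyclin gene Ccna2 at 1.51, and 0 lower. That is 3.85% of the list, near the 3.79% of all genes called higher. The list's median was 0.11, or 0.47 with cells weighted equally. The genes Mki67 and Top2a, expressed in dividing cells, stood at 72.3 and 69.8 CPM and at 78.5 and 80.1 CPM in Kupffer cells, against 29.6 and 14.6 CPM and 23.8 and 9.57 CPM in monocyte-derived macrophages.

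The other lists had at most 3 genes called in either direction. Over all genes tested, 3.79% were called higher and 3.85% lower, so counts of 1 or 2 genes are a description and not a result about the list. Of 13 pan-macrophage genes, Lyz2, Adgre1 and Cd14 were lower and 0 higher. Of 23 genes of CSF, TGF-beta, BMP and Notch signalling, which keep the Kupffer cell niche, Id1 and the Notch target Hes1 were lower, at 0.648 and 0.530, and 0 higher. Of 20 glycolysis and hypoxia genes, Hif1a (1.551, 48.6 and 75.3 CPM) and Eno1 (1.66, 39.8% of words shared) were higher and the glucose transporter gene Slc2a1 lower (0.512). Of 17 metallothionein and antioxidant genes, the metal-binding Mt1 was higher at 1.81 and Gclm, of glutathione synthesis, lower at 0.636. Of 20 lysosomal genes 0 were called either way. Of 11 YAP/TEAD targets tested, Gadd45b was lower at 0.579 and 0 were higher, and 7 more were below the minimum. Of 11 Hippo components tested, Wwc2 was lower at 0.581. Of 15 adhesion genes, the sialic acid receptor Siglec1 was higher at 1.56, while Vcam1, which sets Kupffer cells apart from other macrophages, stood at 599 and 479 CPM, which gives a ratio of 0.7998 (0.724 to 0.883). Of 6 Fc receptors, the inhibitory Fcgr2b was higher at 1.98, with 48.8% and 67.0% of its UMIs in 5 cells.

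**Figure D4:**
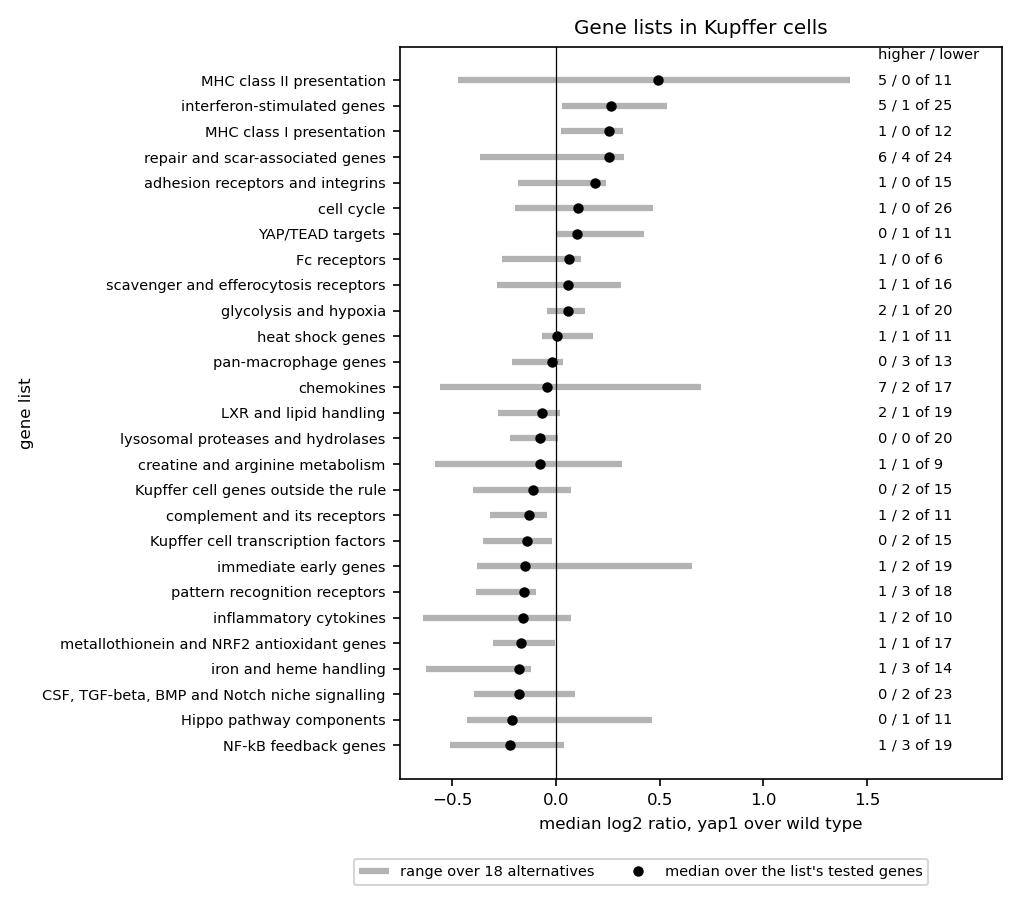
Dots give the median log2 ratio of yap1 over wild type in Kupffer cells for 27 gene lists, grey bars the range of that median over 18 alternatives, and the numbers at the right the genes called higher and lower of those tested. The interferon-stimulated and MHC class I lists stay above 0. The iron, pattern recognition, complement, Kupffer cell transcription factor and metallothionein and antioxidant lists stay below it, the last only just. The MHC class II bar runs from -0.47 to 1.42.

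Timd4, which marks long-resident Kupffer cells, split the cells into 277 with and 131 without a UMI in wild type, and 153 and 66 in yap1. Timd4 belongs to the rule, so the split is a description. A cell without a Timd4 UMI need not lack the transcript, since the share with a UMI fell when cells were thinned. The cells without a UMI were shallower in wild type (median 1933 against 2791 UMIs) and slightly so in yap1 (3010.5 against 3161). The part of depth in the split was not tested. In both libraries alike, beyond 1.5-fold and with intervals clear of 1, 57 of 6101 genes were higher (0.934%) and 59 lower (0.967%) in the cells with Timd4. C6 was 3.55 and 4.11 times as high, the B cell chemoattractant Cxcl13 3.14 and 3.92 times, the hemoglobin scavenger receptor Cd163 3.12 and 8.29 times, Kcna2 2.78 and 4.67 times, the complement gene C2 2.39 and 2.87 times and Ccl24 2.13 and 3.19 times. Also among the 12 highest were Tspan15, Pcolce2, Abhd11os, Paqr9, Adrb1 and Vkorc1. Lower in cells with Timd4 were Fcgr2b (0.201 and 0.274), Fabp5 (0.234 and 0.301), Cx3cr1 (0.362 and 0.124), a receptor of monocytes and young macrophages, Cd93, the integrin gene Itga4 and the B cell gene Cd79a (0.331 and 0.113). The markers of monocyte-derived macrophages, Cx3cr1, Fabp5 and Trem2 among them, stood at 1376 and 2603 CPM in cells with Timd4 and 2731 and 3378 CPM in cells without, and monocyte markers at 1186.5 and 972 CPM against 1146 and 1923 CPM. B cell markers stood at 183 and 80.7 CPM against 378 and 392 CPM, and the part of these cells' RNA in the split was not tested. The 12 Kupffer genes outside the rule summed to 5962 and 6038 CPM in cells with Timd4 and 4326 and 3170 CPM in cells without.

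In cells of at most 10000 UMIs that held under 3 UMIs of each of the B cell, T cell, NK cell, neutrophil and mesenchymal lists, 12 of 3192 genes were higher (0.376%) and 14 lower (0.439%) in both libraries. These cells, with and without Timd4, numbered 225 and 108 in wild type and 117 and 50 in yap1. Those without it were shallower in both libraries, with medians of 1766.5 against 2378 UMIs in wild type and 1821 against 2724 in yap1. The part of this depth was not tested. The filtered cells were not screened for the markers of monocytes and monocyte-derived macrophages. The latter summed to 1235.6 CPM in the cells with and 2651 CPM in those without Timd4 in wild type, and to 1124 and 1836.6 CPM in yap1. Monocyte markers summed to 999 and 433 CPM in wild type and 911 and 1035.5 CPM in yap1, and the part of either in this split was not tested. Dendritic cell markers stood at 15.1 CPM or less. Called in both sets were C6, Ccl24, Fcna, Cdh5, Siglece and Cd300e among the higher genes, and Apoe, Trem2, Cd63, Cd74 and H2-Ab1 among the lower. Those other than C6, Ccl24, Cd74 and H2-Ab1 are given as the whole of this overlap, 6 of 51 and 5 of 11 genes tested in both sets, and were named after their values were seen. In these cells the lipid carrier Apoe stood at 0.537 and 0.469, the lipid receptor Trem2 at 0.354 and 0.309, and the tetraspanin Cd63 at 0.116 and 0.0851 in the cells with Timd4. The lectin receptor Siglece stood at 2.36 and 2.42 and Cd300e at 1.78 and 3.04.

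**Figure D5:**
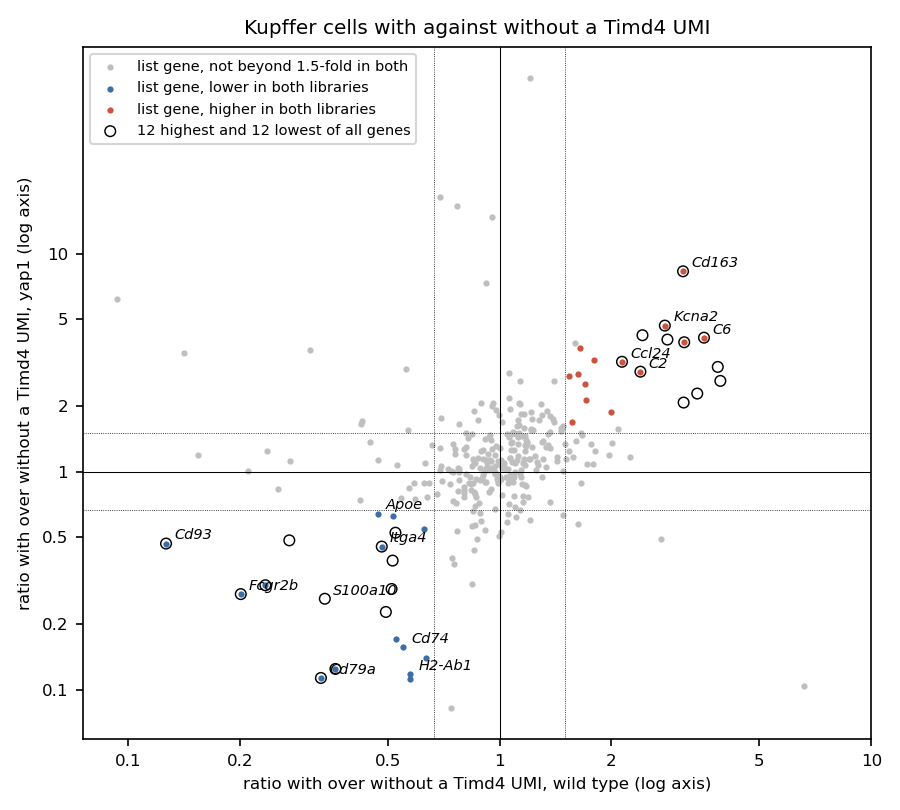
Ratios of Kupffer cells with over those without a Timd4 UMI in wild type (x) and yap1 (y), on log axes with dotted lines at 1.5-fold, for 308 list genes with at least 50 UMIs in each library (dots) and the 12 highest and 12 lowest genes of all (rings). C6, at 3.55 and 4.11, and Cd163, at 3.12 and 8.29, lie in the upper right, Fcgr2b and Cd93 in the lower left, and H2-Ab1 is lower in both libraries but farther down in yap1.

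Against the other myeloid cells, a gene was counted where it passed the same way in both libraries. Over monocyte-derived macrophages, 1025 of 9489 genes were higher in both (10.8%) and 573 lower (6.04%). Beside C6, Fcna and Cxcl13, the adhesion receptor Vcam1 was 22.3 and 26.3 times as high, the cadherin gene Cdh5 109 and 127 times, Clec1b 85.7 and 67.5 times, and Cd55, which shields cells from complement, 41.3 and 32.1 times. Lower were the matrix protein gene Thbs1 (0.124 and 0.0759), the nuclear receptor gene Nr4a2, S100a4 (0.206 and 0.185) and Itga6. Over classical monocytes, 1288 of 10387 genes were higher (12.4%) and 1542 lower (14.8%). Folr2, a folate receptor, stood at 213 and 107 times, Il18bp, which neutralises interleukin 18, at 113 and 50.9 times, and Slc40a1 at 260 and 169 times. Lower were the granule gene Prtn3 (0.0203 and 0.029) and Flt3, at 3.10 and 1.59 CPM against 71.3 and 53.4 CPM. Of the 10 lowest against classical monocytes, Klrc2, Klre1, Xcl1 and Klrb1c are NK cell genes, and Flt3 is a receptor gene of dendritic cells, whose markers that class held too. Kupffer cells had less of the MHC class II chaperone: Cd74 at 1572 and 2625 CPM faced 9283 and 8324 CPM in monocyte-derived macrophages. The monocyte and macrophage classes were deeper, with medians of 12767 and 15694 UMIs in monocyte-derived macrophages, and their cells were picked in part by marker genes.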

How the data were processed

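The data are 1 wild-type and 1 yap1 droplet library of liver nonparenchymal cells. The deposited matrices hold raw counts, integers per the file headers, for each gene and cell barcode, read here as UMI counts. The submitters' processing notes name mm10, Bowtie 0.12.2 and Seurat. Which program counted, with which annotation and strand setting, the sources used here do not say.

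Counts of Kupffer cells were summed per library and scaled to CPM, with exact Poisson intervals. Ratios carry exact conditional binomial intervals, ratios between classes log-normal ones and shares Clopper-Pearson ones, all at 95% for counting error only. A count of 0 was read as allowing 3 counts. Genes needed 20 UMIs over both libraries. Of 27998 gene IDs, 27645 matched GENCODE M21, from which coordinates come. Promoters are from RefSeq (GRCm38.p6), which gave no entry for Adgre1, Cfb and Ccl24.

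Classical monocytes had at least 4 UMIs of Ly6c2, Ccr2, Chil3 and F13a1, and monocyte-derived macrophages at least 3 of Gpnmb, Trem2, Cx3cr1 and Ccr2. Scrublet marked 0.0817% and 0.141% of barcodes, under 0.5%, so it was taken not to have worked and doublets were kept. In 1 alternative the 4% with the highest scores were left out. Thinning to 1000 UMIs left out 40 and 19 shallower Kupffer cells.

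The rule, the 28 gene lists and the alternatives were chosen with earlier results of these data known. Named genes were Yap1, Wwtr1, Lyz2, Lyz1, Drd2, Ctgf, Cyr61, Vcam1 and the 5 markers, in each list up to 4 genes of 50 or more UMIs that lie farthest from 1, and 12 genes at each end of the ranking among those of 200 or more UMIs. For the Timd4 split 12 and 12 genes with at least 50 UMIs in each library were named, and for the other classes 10 and 10 with at least 200. The calculations were tested on simulated counts. Scripts ran in Python 3.11.15 with scipy 1.17.1, scanpy 1.11.5, pandas 2.3.3 and numpy 2.4.6.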

Additional observations from a re-analysis of the deposited data

Results flagged for a closer look

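Only the named genes, many of them chosen for ratios far from 1, were searched for opposite ratios in Kupffer cells and another myeloid class. In 8 of the named genes the ratio of yap1 over wild type lay at or beyond 1.5-fold on opposite sides of 1, with intervals clear of 1. The rest of the 8501 tested genes were not searched in this way. With 1 library per genotype these differences rest on counting error alone and were not tested against the spread between animals. Ccl24 stood at 2.501 in Kupffer cells, 0.380 in monocyte-derived macrophages and 0.530 in classical monocytes. C3ar1 stood at 0.656 in Kupffer cells and 2.11 in classical monocytes. The neutrophil genes S100a8 and S100a9 stood at 0.305 and 0.248 in Kupffer cells, at 2.70 and 2.16 in monocyte-derived macrophages and at 4.42 and 6.9985 in classical monocytes, and Lcn2 at 0.0566 and, in classical monocytes, 3.08. Neutrophil markers summed to 333 and 1505 CPM in classical monocytes, and their part was not tested. In Kupffer cells over 94% of the wild-type UMIs of these 3 genes came from 5 cells. Tnip3 and Socs3 stood at 3.87 and 1.69 in Kupffer cells and at 0.641 and 0.615 in monocyte-derived macrophages, and Fabp4 at 2.21 and, in classical monocytes, 0.648. Of the yap1 Kupffer UMIs of Tnip3, Socs3 and Fabp4, 5 cells held all, 78.1% and all.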

How the results depend on the processing

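The lower share of Kupffer cells in yap1 kept its direction, with its interval clear of 1, in all 8 alternatives tried, at ratios between 0.542 and 0.625. Lyz2 (0.326 to 0.403), Adgre1 (0.513 to 0.607), Spic (0.356 to 0.662), Cfb (0.272 to 0.406), Gatm (1.91 to 2.69) and Ccl24 (1.79 to 3.40) kept their call in the 18 alternatives. Cycling cells alone, with 44.2% and 48.3% of the Kupffer UMIs in wild type and yap1, were not among these 18. In them Lyz2 stood at 0.446, Adgre1 at 0.628, Cfb at 0.458, Gatm at 1.69 and Ccl24 at 2.63. Spic, at 0.684 (0.491 to 0.944), missed the 1.5-fold limit in cycling cells. The counts of 322 higher and 327 lower genes were 115 and 115 with cells thinned to 1000 UMIs, 145 and 157 with at least 100 UMIs per gene, and 895 and 795 with cells weighted equally, a mean that has no counting interval of its own and was read with the width of the summed one. Without the 5 cells richest in each gene, chosen after seeing the data, they were 136 and 718. That step takes UMIs from every gene and moved the median of all genes to -0.17. The median of all genes stayed within 0.1 of 0 in the other 17.

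The chemokine median of -0.05 was -0.39 after thinning, 0.70 and -0.56 in cells with and without a Timd4 UMI, and -0.51 without the 5 richest cells. The immediate early median was -0.38 in that last setting, 0.66 after thinning, 0.42 with equal weights and 0.48 at no more than 10000 UMIs (added after seeing the data). The MHC class II median was 1.42 without the cells holding B cell, T cell, NK cell, neutrophil or mesenchymal markers (352 and 184 cells, not screened for monocyte, macrophage or dendritic cell markers), 0.0435 without the deepest 5%, and -0.47 and 1.30 with and without a Timd4 UMI. The cell cycle median was 0.47 with equal weights. The cause was not tested.

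Single genes crossed 1 as follows. With equal weights Fabp4 was 0.880, Cxcl9 0.604, Tnip3 0.478, Zbp1 1.02 and Gbp2 0.793. In cells with a Timd4 UMI Osm was 0.869, Ccl5 0.988, Zbp1 1.43, H2-Eb1 0.493, H2-Aa 0.657, H2-Ab1 0.641, Thbs1 1.20, Ccr2 0.971 and Cd74 0.792. In cells without one Cxcl10 was 0.138, Socs3 0.836, Ifit3 0.9499, Spp1 0.796, Fn1 0.289 and Siglec1 0.991. With at most 10000 UMIs Id1 was 1.20, Fabp5 0.475, Cxcl10 0.457, Cxcl9 0.434, Tnfaip3 1.03, Fosb 1.37, Zbp1 1.07, Gbp2 0.941 and Gadd45b 1.35. After thinning Cxcl9 was 0.716, Cxcl13 1.03, Gbp2 0.972 and Gclm 1.17. Without cycling cells Fabp4 was 0.144, Cxcl10 0.337, Socs3 0.716 and Fn1 0.188. Without cells holding markers of those 5 kinds Osm was 0.943 and Zbp1 1.22. Without the 4% with the highest doublet score Fn1 was 0.774, S100a9 3.63 and S100a8 6.17. Without the 5 richest cells Fabp5 was 0.441, Cxcl10 0.453, Ccl5 0.292 and Socs3 0.693. Without the deepest 5% Id1 was 1.25, Cd93 0.882, Fabp4 0.241, Cxcl10 0.351, Cxcl9 0.379, Tnip3 0.466, Socs3 0.639, Ifit3 0.915 and H2-Ab1 0.924. The median log2 ratio of lysozymes (Lyz1 and Lyz2), 1.46, was -0.21 at a marker sum of 2, -1.37 without Timd4, -1.36 with at most 10000 UMIs, -1.39 after thinning, -1.47 without cycling cells, -0.50 without the 5 richest cells and -1.51 without the deepest 5%. No paired analysis was possible because each genotype has 1 library. Single genes under 20 UMIs in an alternative were left out there, a minimum raised from 10 after the first values were seen.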
